A study of Mus musculus with 6 samples.

Results

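The loci of Bcl11a and Pou2af1 were examined in a Hi-C study of cultured mouse B-cell progenitors with and without the transcription factor Erg. These are 2 of the 20780 protein-coding genes placed on the autosomes. Each locus was taken as the bin of about 100 kb that holds the gene start together with the 15 bins on either side, which reaches 1.5 Mb in each direction. The 2 windows hold 62 of the 23644 autosomal bins kept after a filter on coverage, and all 62 passed that filter. Both genes had been picked because their compartment scores were lower in Erg KO, so every value of Erg KO against the controls at these loci is given as a description, with no p. The comparison of the 2 control genotypes played no part in the choice and was tested.

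In situ Hi-C counts pairs of DNA fragments that lay close together in the nucleus, and 6 libraries had been made from 3 genotypes with 2 biological replicates each. Erg KO libraries carried the Rag1CreT/+ transgene and Erg fl/fl alleles, so that Erg was deleted in lymphoid cells. CreT control libraries carried Rag1CreT/+ with no floxed Erg allele, and Erg fl/fl control libraries (Rag1Cre+/+;Erg fl/fl) carried the floxed alleles without the transgene. The background strain was labelled C56BL/6 in all 6 libraries, and the labels give no age. All cells came from bone marrow depleted of lineage-positive cells, grown on a layer of OP9 stromal cells in the presence of SCF, IL7 and FL for 8 days and then selected for B220. Rag1Cre acts from an early lymphoid stage onwards, and the study describes the Erg-deficient cells as pre-proB cells and the control cells as proB cells, so genotype and stage cannot be told apart. The second replicates of Erg KO and of the Erg fl/fl control were male, and the remaining 4 libraries were female. At this bin size the deletion within Erg cannot be seen, so the genotype labels were not checked against the data.

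Bcl11a encodes a zinc-finger protein that represses transcription with the NuRD and BAF chromatin complexes. It is needed for the earliest steps of B lymphopoiesis and silences fetal globin genes in red cells. Pou2af1 encodes OBF-1, also called OCA-B or Bob1, a coactivator without DNA-binding specificity of its own that joins the octamer-binding factors Oct-1 and Oct-2 on DNA and is needed for germinal centres. Chromosomes divide into an A compartment, rich in genes and open chromatin, and a B compartment, poor in genes and often at the nuclear lamina, and contacts are more frequent within a compartment than between them. Along a chromosome, insulated borders separate neighbouring domains across which contacts are few.

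On mm10, Bcl11a lies on the forward strand at chr11:24078056-24174123 and its start falls in the bin chr11:23999442-24099360. That bin holds 22.2% of the gene body and the next bin, towards higher coordinates, holds the other 77.8%. Pou2af1 lies on the forward strand at chr9:51213708-51240080, wholly inside the bin chr9:51200014-51300044. The bin of the Bcl11a start also holds the start of A830031A19Rik, and the Pou2af1 bin also holds that of Colca2. A bin therefore reports on about 100 kb of DNA and not on a promoter or on a single gene.

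The sequence before the RefSeq start of each gene is shown because Erg belongs to the ETS family, whose members bind sites with the core GGAA. Each sequence runs from 250 to 26 bases before the RefSeq start, on the forward strand of GRCm38.p6, with every GGAA or its complement TTCC in capitals.
Bcl11a, chr11:24080445-24080669: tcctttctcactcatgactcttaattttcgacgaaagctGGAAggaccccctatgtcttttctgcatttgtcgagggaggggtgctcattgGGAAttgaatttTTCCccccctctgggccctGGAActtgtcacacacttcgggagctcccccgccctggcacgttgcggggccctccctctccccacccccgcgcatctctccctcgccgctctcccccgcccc
Pou2af1, chr9:51213440-51213664: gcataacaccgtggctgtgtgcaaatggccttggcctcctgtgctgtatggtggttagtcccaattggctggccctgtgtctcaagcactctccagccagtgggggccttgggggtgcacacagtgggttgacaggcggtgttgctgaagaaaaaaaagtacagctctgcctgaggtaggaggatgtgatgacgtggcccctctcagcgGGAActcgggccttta
The RefSeq start of Bcl11a lies 2639 bases downstream of the GENCODE start that placed the gene in its bin, so this stretch is inside the GENCODE gene body. The Bcl11a sequence held 4 ETS cores and the Pou2af1 sequence held 1, and 91.5% of 32851 promoter sequences cut in the same way hold at least 1, with a median of 2. No octamer (ATGCAAAT, in 1.51% of those promoters) and no E-box of the E2A type (CAGGTG, in 15.8%) was found in either sequence on either strand. These matches describe letters and not binding. GC content was 60.4% for Bcl11a and 57.3% for Pou2af1, beside a median of 52.0% over all promoters.

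Libraries held between 29014581 and 68085468 read pairs, with Erg fl/fl control replicate 2 the smallest. Read pairs that joined different chromosomes made up 32.1% to 34.4% in Erg KO and 21.5% to 26.7% in the controls. Hi-C does not measure expression, so marker genes could be read only by the compartment of their bins. Pax5, the factor that commits cells to the B lineage, lay in A, at a mean score of 1.19 in the controls and 1.09 in Erg KO. Ebf1, which acts just before Pax5, lay at -0.43 in the controls and -0.67 in Erg KO. Over 20 markers of stromal feeder cells, summed scores ran from 10.4 to 13.0 in Erg KO and from 9.26 to 10.6 in the controls. By limma 2 of the 20 (Prrx1 and Col1a2) were higher in Erg KO and none was lower, beside 1.24% and 1.22% of all bins. No bin of the genome passed without the sex term or without either CreT control library. Over 16 markers of T, NK and myeloid cells the sums ran from 16.6 to 16.9 and from 17.1 to 17.4, and none of the 16 passed. The part of feeder cells or other lineages in the values at the 2 loci was not tested.

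The start of Bcl11a lies where chromosome 11 turns from A to B, and 1 of the 2 Erg KO libraries scored below all 4 controls there. The compartment score was scaled to an SD of 1 over the bins of a chromosome, with positive values on the gene-rich side. In the bin of the Bcl11a start it was -0.58 in Erg KO replicate 1 and -0.12 in Erg KO replicate 2. The CreT controls were at -0.12 and -0.09, and the Erg fl/fl controls at -0.25 and -0.06. Erg KO replicate 1 was therefore below all 4 controls. Erg KO replicate 2 lay among them, below Erg fl/fl control replicate 2, the only male control. The mean of the Erg KO libraries was -0.35 ± 0.33 (SD, n = 2), against -0.13 ± 0.08 (SD, n = 4) for the controls. In the fit with sex as a covariate, Erg KO minus both controls was -0.30 ± 0.07 (SE), a fall matched or passed by 3.09% of all bins. Without a sex term it was -0.22. Leaving out Erg KO replicate 1 brought it to -0.13, and leaving out either male library brought it to -0.40.

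The next bin, which holds most of the Bcl11a body, showed the same arrangement. It scored -0.69 and -0.23 in Erg KO, -0.13 and -0.13 in the CreT controls and -0.26 and 0.01 in the Erg fl/fl controls. Erg KO minus both controls was -0.42 ± 0.05 (SE) there. Of the 31 bins of the window, the 5 with the widest change were those from the start bin to 0.4 Mb beyond it, with falls from -0.26 to -0.45. Scores had been smoothed over 3 bins, so neighbouring bins share part of their data. Over the window, 3 of 31 bins were lower by limma and none was higher, beside 1.22% and 1.24% of all bins, and since the locus was chosen on this contrast the count is a description. No bin of the genome passed in either direction without the sex term, with the replicate number in its place, or without either CreT control library. In 4 of 31 bins both Erg KO libraries lay below all 4 controls and in 4 they lay above, beside 12.5% and 15.5% of all bins.

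Across the Bcl11a window the score fell from the A side to the B side in every library. Over the 15 bins towards lower coordinates, which hold 16 protein-coding starts, the mean score was 0.37 and 0.35 in Erg KO, 0.35 and 0.36 in the CreT controls and 0.32 and 0.39 in the Erg fl/fl controls. Over the 15 bins towards higher coordinates, which hold no protein-coding start, it was -1.01 and -0.88 in Erg KO, -0.83 and -0.86 in the CreT controls and -0.88 and -0.72 in the Erg fl/fl controls. The groups overlapped on both sides, and on the higher side Erg KO replicate 1 was the lowest library. The score passed through 0 before the gene in all 6 libraries, at -189 kb from the gene start in Erg KO replicate 1 and -89.6 kb in Erg KO replicate 2. In the controls this crossing lay from -151 kb to -70.7 kb. It was not the last in Erg fl/fl control replicate 2, which rose just above 0 again after the start bin. That library scored 0.0085 at 0.1 Mb, 0.0021 at 0.2 Mb and -0.18 at 0.3 Mb beyond it. The crossing before the gene thus lay farthest towards the A side in Erg KO replicate 1, and that of Erg KO replicate 2 lay within the control range.

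Pou2af1 also sits where A gives way to B, and there it was the Erg fl/fl controls that stood apart. Its bin scored -0.06 in Erg KO replicate 1 and -0.27 in Erg KO replicate 2. The CreT controls scored -0.08 and -0.11, and the Erg fl/fl controls 0.19 and 0.37. Erg KO replicate 1 was above both CreT controls, Erg KO replicate 2 was the lowest of the 6 libraries, and the Erg fl/fl controls were the only ones above 0. The means were -0.16 ± 0.15 (SD, n = 2) in Erg KO and 0.09 ± 0.23 (SD, n = 4) over the controls, made up of -0.10 in the CreT controls and 0.28 in the Erg fl/fl controls. Erg KO minus both controls was -0.25 ± 0.09 (SE), a fall matched or passed by 4.94% of all bins. Against each control on its own it was -0.06 for CreT and -0.44 for the other. Leaving out either male library, that is replicate 2 of Erg KO or of the Erg fl/fl control, brought the value to -0.10, and leaving out Erg KO replicate 1 brought it to -0.49.

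Most other bins of the Pou2af1 window differed from its own in sign, with 23 of 31 bins above the controls in the fit and a median of 0.11. The 5 bins with the widest change lay from 1.1 to 1.5 Mb towards lower coordinates, in a B stretch that holds the start of Ncam1, the neural cell adhesion molecule, in the first bin of the window. The bin at -1.3 Mb scored -0.62 and -0.72 in Erg KO, -0.96 and -0.89 in the CreT controls and -0.91 and -1.22 in the Erg fl/fl controls. Erg KO minus both controls was 0.38 ± 0.06 (SE) in this bin and 0.33 to 0.37 in the other 4, and in each of these bins the Erg KO libraries were the highest of the 6. Over the 15 bins on that side the mean score was 0.44 and 0.40 in Erg KO, 0.26 and 0.31 in the CreT controls and 0.29 and 0.11 in the Erg fl/fl controls. In 16 of 31 bins both Erg KO libraries were above all controls and in 1 bin, the one just after the gene, they were below, beside 15.5% and 12.5% of all bins. By limma 1 of 31 bins was higher and none was lower, beside 1.24% and 1.22% of all bins, and here too no bin of the genome passed without the sex term or without either CreT control library. The position where the score passed through 0 was 27.3 and -3.92 kb from the gene start in Erg KO, 21.7 and 16.4 kb in the CreT controls and 70.8 and 115 kb in the Erg fl/fl controls.

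**Figure D1:**
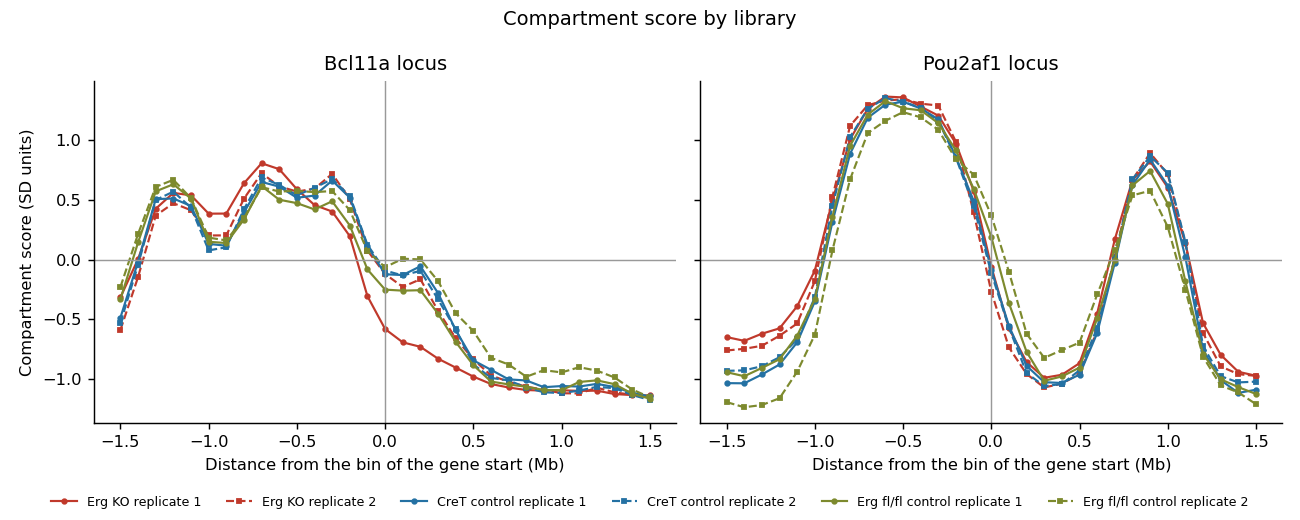
Compartment score (SD units) of each of the 31 bins in the Bcl11a window (left) and the Pou2af1 window (right) against distance in Mb from the bin of the gene start, with 1 line per library. In the Bcl11a panel the line of Erg KO replicate 1 lies apart from the other 5 from about 0.2 Mb before to 0.4 Mb after the gene, and in the Pou2af1 panel the lines of the Erg fl/fl controls, at 0.19 and 0.37, lie above the others at the gene.

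The 2 controls were then compared with each other. In the Bcl11a bin CreT control minus Erg fl/fl control was 0.21 ± 0.08 (SE), with an adjusted p of 0.283 by limma, and in the Pou2af1 bin it was -0.39 ± 0.11 (SE), with an adjusted p of 0.249 by limma. Neither passed, and no bin of either window and none of the 23644 bins passed in either direction, although 9 bins of the Bcl11a window and 4 of the Pou2af1 window had an unadjusted p under 0.05, beside 17.9% of all bins. Without a sex term the Bcl11a difference was 0.05. When Erg fl/fl control replicate 1 was left out, the differences were 0.42 and -0.68. That control then held only its male library, and the sex term rested on the Erg KO libraries alone. The p-values of that fit measure no spread within that control and are not given. With all libraries in the fit, the Pou2af1 difference between the controls was larger than that between Erg KO and both controls. The difference between these values was not tested.

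Insulation gave the place of each gene within its domains. The insulation score is the log2 of the contacts that cross a bin within 500 kb over the chromosome mean of the library, so a local dip in the score marks a border. The Bcl11a bin scored -0.62 and -0.33 in Erg KO, -0.32 and -0.37 in the CreT controls and -0.63 and -0.61 in the Erg fl/fl controls. These values were below the chromosome mean in all 6 libraries, 38.1% of all bins had a mean control score as low, and the Erg KO libraries spanned the range of the controls. Within 0.3 Mb of the gene, the lowest score lay in the bin before the Bcl11a start in 5 libraries and in the start bin itself in Erg fl/fl control replicate 2. Erg KO minus both controls was -0.03 ± 0.08 (SE) in the start bin, and without Erg KO replicate 1 it was 0.14.

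The Pou2af1 bin also lay in a dip, of a depth that 41.7% of all bins reached in the controls. It scored -0.55 and -0.82 in Erg KO, -0.44 and -0.61 in the CreT controls and -0.41 and -0.13 in the Erg fl/fl controls. Erg KO replicate 2 was the lowest, and Erg KO replicate 1 lay between the CreT controls. Erg KO minus both controls was -0.29 ± 0.12 (SE), made up of -0.17 against the CreT control and -0.42 against the Erg fl/fl control. Without either male library it was -0.086, and without Erg KO replicate 1 it was -0.63. The lowest score lay in the Pou2af1 bin in both Erg KO libraries and in CreT control replicate 2, and in the bin after it in the other 3 libraries.

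Insulation over the windows was read in the same way. In the Bcl11a window 10 of 31 bins were higher and none was lower by limma, and in the Pou2af1 window 12 were higher and 3 lower, beside 39.1% higher and 26.6% lower among 22790 bins with a score, so these counts lie near or below those of all bins. At the far end of the Bcl11a window, 1.5 Mb into the gene desert, the scores were 0.17 and 0.13 in Erg KO, -0.16 and -0.14 in the CreT controls and -0.20 and -0.43 in the Erg fl/fl controls. The groups did not overlap there, as in 17 of 31 bins of this window and 15 of 31 of the Pou2af1 window where Erg KO was above all controls, beside 39.6% of all bins. Erg KO was below all controls in 4 bins of the Pou2af1 window, beside 29.2% of all bins. In the Pou2af1 window, the bins from 0.4 to 0.6 Mb before the gene were lower, by 0.24 to 0.30, and the bins from 0.9 to 1.5 Mb before it were higher, by 0.36 to 0.48. Between the controls, insulation in the Bcl11a bin differed by 0.35 ± 0.10 (SE; limma adjusted p = 0.560) and in the Pou2af1 bin by -0.25 ± 0.15 (SE; limma adjusted p = 0.608). Without Erg fl/fl control replicate 1 these were 0.55 and -0.66, with the same limit as for the compartment scores.

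**Figure D2:**
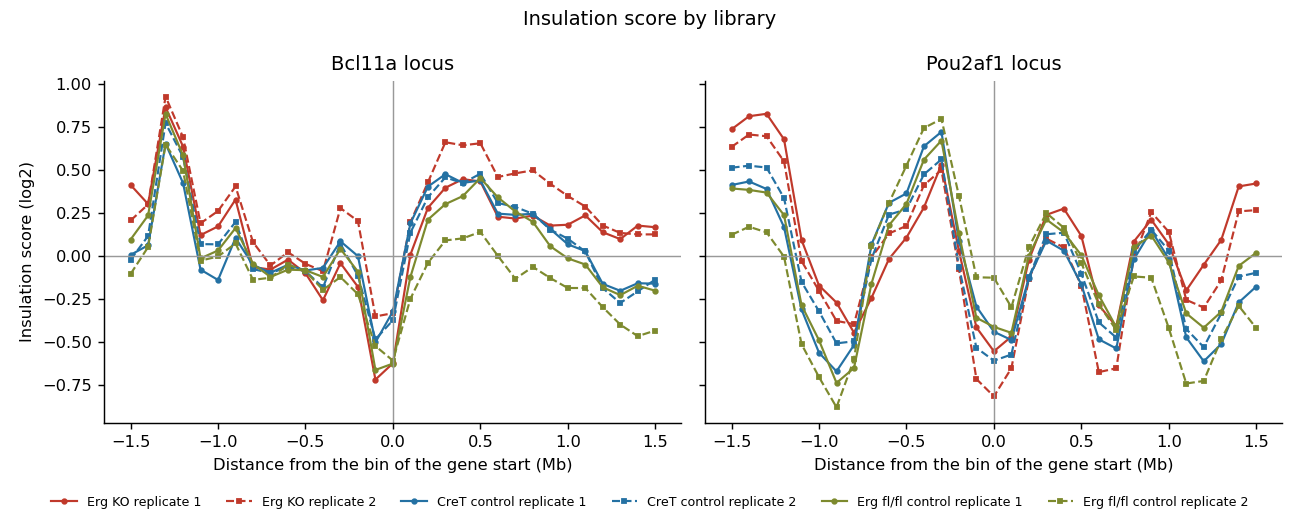
Insulation score (log2 of contacts across a bin within 500 kb over the chromosome mean) of each bin in both windows against distance in Mb from the bin of the gene start, with 1 line per library. Both genes lie in a dip in every library, and the scores of both Erg KO libraries are above all controls towards the ends of the windows.

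**Figure D3:**
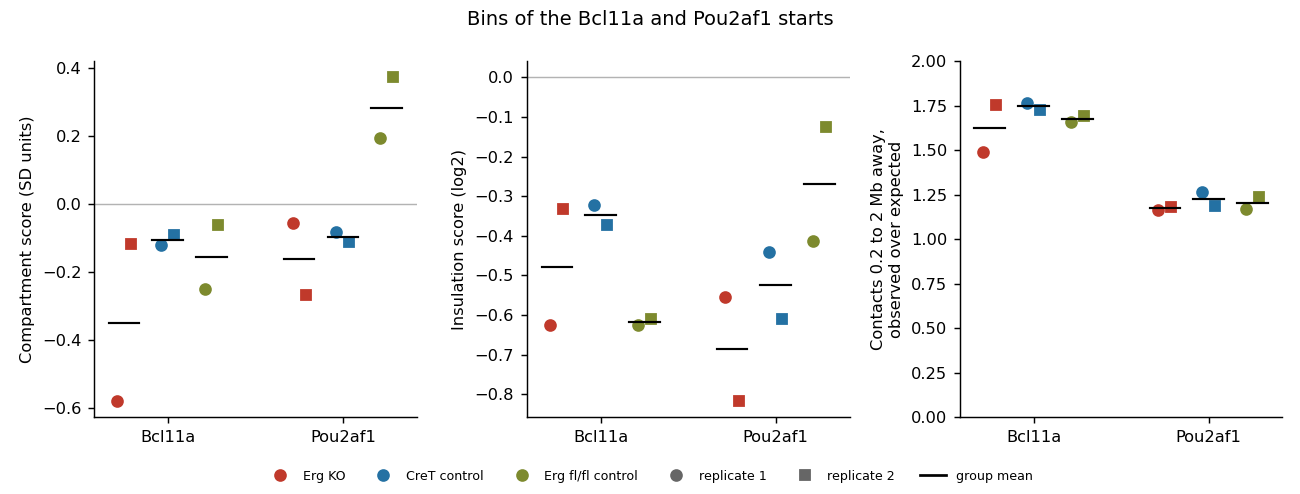
Values of the bins of the Bcl11a and Pou2af1 starts in the 6 libraries (circles, replicate 1; squares, replicate 2; horizontal lines, group means). Left, compartment score in SD units; middle, insulation score in log2; right, contacts with bins 0.2 to 2 Mb away as observed over expected. At Bcl11a the Erg KO replicate 1 point lies below that of replicate 2 in each panel, and at Pou2af1 the Erg fl/fl controls hold the highest compartment and insulation scores.

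The contacts of each gene bin with its surroundings were read as observed over expected, where the expected value is the mean of all autosomal bin pairs at the same distance in that library. The Bcl11a bin met the gene desert more often for its distance than the gene-rich side. With bins 0.2 to 0.5 Mb towards lower coordinates the ratio was 0.702 and 0.889 in Erg KO, 0.806 and 0.840 in the CreT controls and 0.863 and 1.09 in the Erg fl/fl controls. With bins 1.1 to 1.5 Mb towards higher coordinates it was 2.97 and 3.72 in Erg KO, 3.78 and 4.20 in the CreT controls and 3.25 and 3.68 in the Erg fl/fl controls. So the bin of the Bcl11a start, though near 0 in compartment score in most libraries, had its long contacts on the B side in all 6 libraries. The log2 ratio of lower-side to higher-side contacts from 0.2 to 1.5 Mb was -1.53 and -1.65 in Erg KO and ran from -1.61 to -1.06 in the controls, and the groups overlapped. In 1 of the 6 classes of side and distance, 1.1 to 1.5 Mb towards lower coordinates, both Erg KO libraries (0.748 and 0.728) were below all controls (0.790 to 0.970). These counts are low, from 37 to 71 read pairs per library, and the share of all bins without such overlap was not worked out.

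The Pou2af1 bin was more evenly placed. Its log2 ratio of lower-side to higher-side contacts was 0.09 and 0.19 in Erg KO, 0.38 and 0.41 in the CreT controls and 0.42 and 0.48 in the Erg fl/fl controls. Here both Erg KO libraries were below all 4 controls, with means of 0.14 ± 0.07 (SD, n = 2) and 0.42 ± 0.04 (SD, n = 4). The difference lay on the gene-rich side. With bins 0.6 to 1.0 Mb towards lower coordinates the ratio of observed to expected was 0.922 and 1.30 in Erg KO, 1.40 and 1.34 in the CreT controls and 1.49 and 1.72 in the Erg fl/fl controls. In the other 5 classes of side and distance the groups overlapped. The share of all bins without overlap was not worked out for these ratios, so nothing is read from it here. With 2 libraries in each control group an exact permutation test could not go below a p of 0.333, so these ratios were not tested between the controls.

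Over all distances from 200 kb to 2 Mb, the Bcl11a bin had 1139 and 1289 read pairs in Erg KO, 1807 and 1776 in the CreT controls and 1295 and 1047 in the Erg fl/fl controls. Relative to library size and distance, the ratios were 1.49 and 1.76 in Erg KO, 1.76 and 1.73 in the CreT controls and 1.66 and 1.69 in the Erg fl/fl controls. Erg KO replicate 1 was the lowest and Erg KO replicate 2 lay among the CreT controls. The log2 fold change from edgeR was -0.17 ± 0.06 (SE) and the bin was among the 33.2% of all bins called lower, while without Erg KO replicate 1 the value was -0.071. The Pou2af1 bin had ratios of 1.16 and 1.18 in Erg KO, 1.27 and 1.19 in the CreT controls and 1.17 and 1.24 in the Erg fl/fl controls, and its log2 fold change of -0.12 ± 0.06 (SE) was not called. Its Erg KO ratios overlapped those of the controls. Between the controls the log2 differences were 0.12 ± 0.07 (SE; edgeR adjusted p = 0.601) for Bcl11a and 0.06 ± 0.07 (SE; edgeR adjusted p = 0.855) for Pou2af1.

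**Figure D4:**
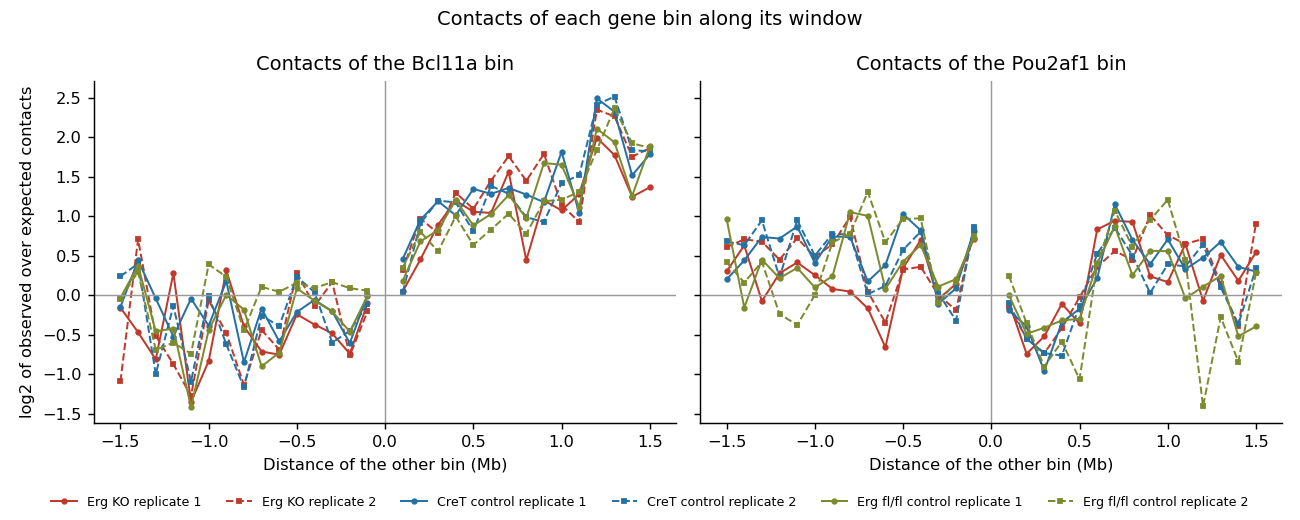
Contacts of the Bcl11a bin (left) and the Pou2af1 bin (right) with every other bin of the window, as log2 of observed over expected, against the distance of the other bin in Mb, with 1 line per library. The Bcl11a bin is above 0 at every position towards higher coordinates in all 6 libraries and lies around or below 0 at most positions towards lower coordinates. In the Pou2af1 panel both Erg KO lines are below all controls at -0.5 and -0.6 Mb and above all of them at 1.1 and 1.5 Mb.

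Single bin pairs were then taken. For each gene bin, 18 bin pairs lay at least 200 kb apart within 1.5 Mb with a mean count of 20 or more, and the 5 with the widest change are given. For Bcl11a, 4 of the 5 partners lay in the gene desert, 1.0 to 1.5 Mb away, and the other held Papolg, a poly(A) polymerase gene 183 kb before Bcl11a. The pair with the bin at 1.3 Mb had 36 and 48 read pairs in Erg KO, 72 and 80 in the CreT controls and 42 and 50 in the Erg fl/fl controls. Its normalised counts were 37.1 and 51.2 in Erg KO and 43.5 to 71.4 in the controls, and its log2 fold change was -0.56 ± 0.21 (SE). The pair with the bin at 1.0 Mb had normalised counts of 31.5 and 32.5 in Erg KO and 40.0 to 54.5 in the controls, with no overlap, and a log2 fold change of -0.50 ± 0.24 (SE). The Papolg pair also did not overlap, at 46.3 and 45.8 against 49.9 to 76.0. None of these 5 pairs was called by edgeR. They had been picked for a wide change, so nothing is read from a lack of overlap.

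For Pou2af1, the 5 pairs, likewise picked for the width of their change, had fewer contacts in Erg KO. Of 31 tested pairs with the gene bin 3 were called lower, beside 6.46% of all bin pairs, and their partners lay 0.5 to 0.7 Mb before the gene. The bin at -0.6 Mb holds Sdhd, a subunit of succinate dehydrogenase, and Dlat, a subunit of pyruvate dehydrogenase. Its pair with Pou2af1 had 16 and 19 read pairs in Erg KO, 45 and 37 in the CreT controls and 28 and 34 in the Erg fl/fl controls. Normalised, these were 16.8 and 20.7 in Erg KO and 29.0 to 45.7 in the controls, and the log2 fold change was -1.03 ± 0.29 (SE). The bin at -0.7 Mb holds Il18, a cytokine gene, and its pair had normalised counts of 19.9 and 22.8 in Erg KO, 26.1 and 22.9 in the CreT controls and 46.5 and 62.3 in the Erg fl/fl controls. Its log2 fold change was -0.86 ± 0.27 (SE), made up of -0.38 against the CreT control and -1.33 against the Erg fl/fl control. The bin at -0.5 Mb holds the small heat shock protein genes Cryab and Hspb2, and its pair had 40.4 and 39.6 in Erg KO and 44.5 to 69.6 in the controls, with a log2 fold change of -0.59 ± 0.22 (SE). In these 3 pairs both Erg KO libraries lay below all 4 controls, by a narrow margin in the Il18 pair. The pairs had been picked for a wide change, so nothing is read from this lack of overlap.

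Over all pairs of bins inside a window, 362 of 496 in the Bcl11a window and 411 of 496 in the Pou2af1 window passed the abundance filter. For Bcl11a, 8 were lower and 6 higher in Erg KO by edgeR, beside 6.46% and 6.39% of 431102 bin pairs, and with TMM scaling the split was 5 and 10. For Pou2af1, 32 were lower and 6 higher, and with TMM scaling 10 were higher. The median log2 fold change was -0.09 for Bcl11a and -0.13 for Pou2af1, beside -0.01 over all bin pairs. These counts come from the contrast that chose the loci and nothing is read from them. When each pair was also adjusted for the coverage of its bins, none was lower in either window and the Pou2af1 median was 0.10. Without Erg KO replicate 1 or without Erg KO replicate 2 no bin pair was called lower or higher in either window or over all 431102. DESeq2 called none in either window, with an adjusted p for 142 and 117 of the pairs.

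The bin pairs were also counted by side, again as a description. Of 146 tested pairs that span the Pou2af1 bin, 13 were lower and none higher, beside the 6.46% and 6.39% of all bin pairs, and their median log2 fold change was -0.44. Summed over these pairs, the normalised counts were 1876 and 1970 in Erg KO, 2438 and 2306 in the CreT controls and 2416 and 3100 in the Erg fl/fl controls. Both Erg KO libraries lay below all controls, and the medians against CreT (-0.44) and against Erg fl/fl (-0.45) were close. Over all autosomes, contacts 0.5 to 2 Mb apart made up 13.0% to 13.2% of contacts within chromosomes in Erg KO and 14.0% to 19.6% in the controls. Erg fl/fl control replicate 2 was highest in this share and in the sum. The part of this share in the sums was not tested. Within the 15 bins before the gene 16 of 114 pairs were lower and 3 higher, and within the 15 bins after it none of 120 was lower and 3 were higher. Of the pairs called higher after the gene, those at 1.3 and at 1.4 Mb were counts of a bin with itself. The sums after the gene, which include such counts, were 8284 and 8172 in Erg KO and 7708 to 8101 in the controls. There Erg KO lay above. No share over other windows was worked out for these sums, so nothing is read from the lack of overlap on either count.

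In the Bcl11a window, 93 tested pairs span the start bin, of which 2 were lower and none higher, beside 6.46% and 6.39% of all bin pairs, with a median log2 fold change of -0.28. Their summed normalised counts were 1205 and 1461 in Erg KO, 1655 and 1553 in the CreT controls and 1454 and 1576 in the Erg fl/fl controls. Erg KO replicate 1 was below all controls, while Erg KO replicate 2 was above Erg fl/fl control replicate 1. Within the gene-rich side 6 of 120 pairs were lower and 1 higher, and within the gene desert none of 120 was lower and 5 were higher, shares at or below those of all bin pairs. Of those 5, 4 were counts of a bin with itself.

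Between the controls, edgeR called none of the 362 pairs of the Bcl11a window and none of the 411 of the Pou2af1 window, beside 0.000232% of all bin pairs lower and 0% higher. At an unadjusted p under 0.05 there were 26 and 27, beside 6.46% of all bin pairs, and DESeq2 also called none in either window.

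**Figure D5:**
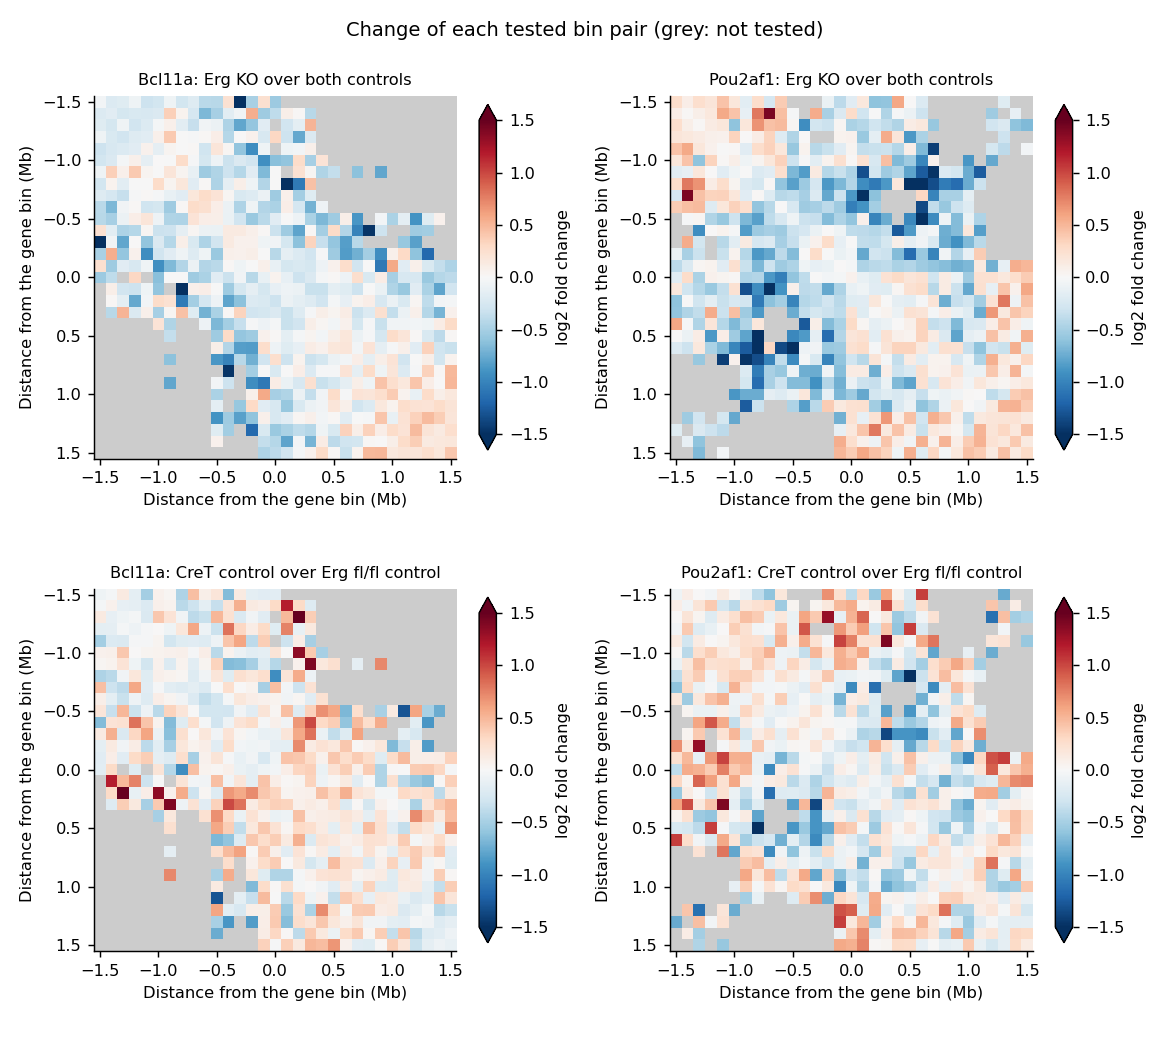
log2 fold change of each tested bin pair in the Bcl11a window (left) and the Pou2af1 window (right) for Erg KO over both controls (top) and CreT control over Erg fl/fl control (bottom), with both axes giving distance in Mb from the gene bin and grey for pairs not tested. Colours stop at 1.5 in either direction. In the Pou2af1 window 126 of the 146 tested pairs that span the gene bin have a negative value in Erg KO over both controls.

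The genes around Bcl11a lie on its A side. The bin 0.2 Mb before it, with Papolg, scored 0.20 and 0.51 in Erg KO, 0.52 and 0.53 in the CreT controls and 0.29 and 0.42 in the Erg fl/fl controls. The bin 0.3 Mb before it holds Rel, the NF-kB subunit c-Rel that is active in B cells, and scored 0.40 and 0.72, 0.66 and 0.68, and 0.49 and 0.58 in the same order. In both bins Erg KO replicate 1 was the lowest of the 6 libraries and Erg KO replicate 2 was within or above the controls. The bin with Pex13, a peroxisomal import gene, Pus10, a pseudouridine synthase, and 0610010F05Rik changed by -0.04 ± 0.04 (SE). On the other side the nearest protein-coding start is that of 5730522E02Rik, 2133 kb away, in a bin that scored -0.71 in Erg KO, -0.61 in the CreT controls and -0.63 in the Erg fl/fl controls.

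Around Pou2af1, 15 other protein-coding genes start within 0.5 Mb, 1 of them in its own bin and the others in 5 bins. The bin 0.2 Mb before it holds Sik2, a salt-inducible kinase, Layn, the hyaluronan receptor layilin, and Btg4. It scored 0.97 and 0.99 in Erg KO, 0.86 and 0.85 in the CreT controls and 0.92 and 0.84 in the Erg fl/fl controls, so both Erg KO libraries were above all controls. The bin with Ppp2r1b, a scaffold subunit of protein phosphatase 2A, changed by 0.05 ± 0.03 (SE), and that with Dixdc1, Cryab, Hspb2, Alg9 and 3 others by 0.07 ± 0.03 (SE). The bin just before the gene, with 4833427G06Rik and Gm32742, changed by -0.07 ± 0.07 (SE) and the bin just after it, with 1810046K07Rik, by -0.27 ± 0.09 (SE). In that last bin the scores were -0.58 and -0.74 in Erg KO, -0.55 and -0.57 in the CreT controls and -0.36 and -0.10 in the Erg fl/fl controls. The Erg fl/fl controls were the highest here, as at Pou2af1, but both Erg KO libraries were below all controls, Erg KO replicate 1 by a narrow margin. The values of genes in 1 bin are the same measurement.

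The genes on other chromosomes whose scores over the 6 libraries lay nearest to those of Bcl11a, by Euclidean distance among 20299 protein-coding genes in kept bins, were Ccdc59 (distance 0.05), Rab38 (0.19), a small GTPase of pigment cells, and Themis (0.20), a T-cell signalling gene. Erg KO replicate 1 was the lowest library for all 3, at -0.57, -0.50 and -0.53. Nearest to Pou2af1 were Fra10ac1 (0.14), Tbx5 (0.16), a heart transcription factor, and Kcna1 (0.17), a potassium channel, and for all 3 the Erg fl/fl controls were the highest libraries. These are descriptions over 6 values and carry no test. The genes were picked for likeness over those same values, so a shared order of libraries follows from the choice.

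Both genes belong to a list of 21 transcription factors of the B lineage, which was drawn up with earlier results of these data known. None of the 21 bins passed in the compartment score by limma, 15 of 21 were lower in Erg KO by sign, and the median change was -0.06, beside 0.01 over all bins. In 4 of the 21 both Erg KO libraries were below all controls and in 1 they were above, beside 12.5% and 15.5% of all bins. The list holds the 2 genes picked for a lower score, and no share by sign was worked out over all bins. Nothing is read from these counts. Bcl11a had the lowest value of the list, followed by Ebf1 at -0.28 ± 0.15 (SE), and the highest were Irf4 at 0.06 and Runx1 at 0.06. Among 12 partners of the members, which are octamer-binding factors, the paralogue Bcl11b and subunits of the NuRD and BAF complexes, none passed and the median change was 0.01. Their extremes were Bcl11b at -0.10 and Hdac2 at -0.08, and Arid1a at 0.08 and Pou2f3 at 0.09. Among 7 genes known as targets of the octamer coactivator none passed either, with a median of 0.02, from Blk at -0.06 and Prdm1 at -0.04 to Cd22 at 0.04 and Cd79a at 0.05. Cd22, a B-cell inhibitory receptor, and Cd79a, a signalling chain of the B-cell receptor, lay deep in A in both groups, at 1.47 and 1.43 in Erg KO and 1.44 and 1.40 in the controls. In contacts from 200 kb to 2 Mb, edgeR called 15 of the 21 B-lineage factors, 11 of the 12 partners and 5 of the 7 targets lower in Erg KO, and 2, 1 and 0 higher, with medians of -0.19, -0.47 and -0.51. Over all bins 33.2% were lower and 34.3% higher, with a median of 0.01. Of the 16 markers of T, NK and myeloid cells 14 were lower and 1 higher, with a median of -0.35. Of the 20 markers of stromal feeder cells 7 were lower and 5 higher, with a median of -0.09. Most bins of these lists lie in A, so the shares over all bins are not a like comparison. Shares among bins of like score were not worked out.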

How the data were processed

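Per the labels and the study's methods, the authors mapped the in situ Hi-C reads to mm10 with diffHic, removed duplicates and artefactual pairs and deposited raw counts of read pairs for pairs of bins of about 100 kb, with 1 column per library and none of other samples. The deposited counts of Erg fl/fl control replicate 2 sum to less than the range of read pairs given in the methods. Counts were tested with edgeR 4.0.16 (quasi-likelihood) and scores with limma 3.58.1 in R 4.3.3, with Benjamini-Hochberg adjustment over all bins or bin pairs at 0.05. The fits held the 3 groups and sex. Autosomal bins with coverage between 0.3 and 3 times the median were kept, and so were bin pairs at 5 times the abundance of contacts between chromosomes (431102 pairs, smallest summed count 46), with loess offsets. Compartment scores were the component of observed over expected contacts (smoothed over 3 bins) that followed gene density, computed in Python 3.11.15. Gene positions came from GENCODE M21 and promoters from RefSeq. The genes named were the members, genes starting within 0.5 Mb, the nearest start on each side, partners in the 5 most changed bin pairs, the 5 most changed bins, the 3 most alike genes and up to 4 per list. The members and the lists were chosen with earlier results of these data known. On simulated data, 14% of bin pairs changed 2-fold and 64% of those changed 4-fold were recovered, with a false share of 3.70%, beside 100% for local contacts. Scores simulated with an SD of 0.1 and a shift of 1 were recovered at 100%. Score changes at the 2 loci were smaller than that shift, so this recovery does not apply to them. The alternatives were TMM scaling, DESeq2 1.42.0, other filters, distances and smoothing, fits with no sex term or with the replicate number, offsets for GC content or bin coverage and leaving out each library. With 2 libraries a group, p-values measure only the spread between these libraries.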

Additional observations from a re-analysis of the deposited data

How the results depend on the processing

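Of 312 alternatives over 24 results, 248 kept the direction and stayed on the same side of the threshold or within the spread. These include the counts of bin pairs called between the controls, which were 0 throughout. For Erg KO against both controls, counts of lower bin pairs moved in 12 of 14 alternatives at Bcl11a and 10 of 14 at Pou2af1. Counts of higher bin pairs moved in 9 of 14 at each gene. Each pair of counts that follows gives Bcl11a first and then Pou2af1, for Erg KO against both controls, where 8 and 32 bin pairs were lower and 6 and 6 higher. Without the sex term 2 and 12 were lower and 3 and 2 higher, and the same counts came with the replicate block in place of sex. TMM scaling gave 5 lower for Bcl11a and 10 higher in each window. A summed count of 20 or more in place of the abundance filter gave 4 and 20 lower, and 3 higher for Pou2af1. DESeq2 gave 0 lower and 0 higher in both windows, offsets for bin coverage gave 0 lower in both and 0 higher for Bcl11a, and offsets for GC content gave 2 and 10 lower and 0 higher for Bcl11a. The GC and coverage settings and the crossed pairing were chosen after seeing the data. With coverage offsets the median log2 fold change in the Pou2af1 window turned from -0.13 to 0.10. The cause was not tested. Over all bin pairs 12.8% were called, 0.555% with coverage offsets, 1.99% with GC offsets and 1.04% with DESeq2.

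For Erg KO against both controls, the Pou2af1 compartment difference was -0.38 without smoothing, the Bcl11a insulation difference 0.16 with the GC trend removed, and the Pou2af1 log2 change in local contacts -0.24 between 0.2 and 1 Mb. Leaving out each library, compartment differences ran from -0.40 to -0.13 at Bcl11a and from -0.49 to -0.10 at Pou2af1, insulation from -0.14 to 0.14 and from -0.63 to -0.086, and local contacts from -0.23 to -0.071 and from -0.19 to -0.083. Bin pairs called lower ran from 0 to 7 and from 0 to 35, and those called higher from 0 to 5 and from 0 to 6, with 0 in each case without either Erg KO library. For CreT control against Erg fl/fl control the compartment ranges were 0.14 to 0.42 and -0.68 to -0.29. The insulation ranges were 0.28 to 0.55 and -0.66 to -0.11. The values farthest from 0 came without Erg fl/fl control replicate 1, where the sex term rested on the Erg KO libraries alone. A group left with 1 library is assumed to vary like the others, and where only 1 male library is left the sex term fits it exactly, so that it adds nothing.

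Replicate numbers showed no pairing shared by all groups. Differences between replicates 1 and 2 were correlated between groups, and the values give compartment scores first and then insulation. For Erg KO and the Erg fl/fl control, whose second replicates were both male, they were 0.13 and 0.50. For the CreT control they were -0.03 and -0.19 with Erg KO and -0.35 and -0.49 with the Erg fl/fl control. With the replicate block no compartment bin was called over the whole genome, and the Bcl11a and Pou2af1 differences were -0.22 and -0.25. With the CreT control numbers crossed, 0 compartment bins and 57.0% of insulation bins were called, beside 2.46% and 65.7%.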
